A study of Mus musculus with 10 samples.

Results

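The genes of glutathione synthesis and recycling described here are Gclc, Gclm, Gss, Slc7a11, Slc3a2, Gsr, Glrx, Ggt1 and Abcc1. They were found as every probe that the scanner files name after one of these genes, directly or through its accession, which gave 17 of the 41173 probes tested and 9 of 27669 genes. RNA from whole lung was hybridized to Agilent arrays that cover the mouse genome, 5 lungs in each group and each lung on an array of its own. All mice were females of the inbred strain BALB/c that arrived at 6 to 8 weeks of age. The smoke group received whole-body exposures to the mainstream smoke of 12 reference cigarettes without filters, 2 times a day for 50 minutes, 5 days a week, for 8 weeks, and the controls breathed room air for 8 weeks.

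Each array compared the lung (red) with a reference RNA (green), and each value below is a log2 ratio of red over green. The labels name a single dye, so marker genes were used to tell what each channel held. The Y chromosome genes Ddx3y, Eif2s3y and Kdm5d stood well over background in the green signal of 10 of 10 arrays and in the red signal of only 2, 0 and 1, whereas the lung genes Sftpc, Scgb1a1 and Ager were brighter in red by 6.39, 6.72 and 4.83 on the log2 scale. The arrays lay on 5 slides, each with the smoke and the room air lung of 1 replicate number. Smoke always had place 1 on the slide and room air place 2, so place and group cannot be told apart. In the red channel 67.8 to 76.7% of spots were well above background with room air (median 71.7) and 64.9 to 77.5% with smoke (median 69.5). Precision is limited by the small number of lungs.

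The assignment of arrays to groups is not the same in all deposited data. In the processed value table, 286449 of 286449 values match, within 1e-04, the opposite group's array of that replicate number, and only 286 match the array that the column is named after. The groups here are those of the scanner files, whose own names match the sample labels. Every direction given below rests on that assignment and would be the opposite under the assignment of the value table.

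The room air lung of replicate 1 stood apart from the other controls. The mean log2 ratio of 10 neutrophil markers was 3.09 in that lung and 1.78, 1.88, 1.60 and 1.82 in room air replicates 2 to 5, against 2.61, 2.30, 2.48, 2.09 and 2.20 in smoke replicates 1 to 5. For named genes in which its gap to the nearest control was over 0.71 of the range of the controls, the difference is also given without it. Where it was the highest control, leaving it out enlarges any rise by construction. The choice to leave it out rests on the values tested, so an adjusted p without it is a description only.

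Glutathione is a tripeptide of glutamate, cysteine and glycine that serves as the main soluble thiol of the cell. Its synthesis is limited by cysteine, which many cells import as cystine, and by glutamate cysteine ligase, whose catalytic and modifier subunits are encoded by Gclc and Gclm. Glutathione synthetase then adds glycine, glutathione reductase returns the oxidized form to the reduced one with NADPH, and gamma-glutamyl transferase breaks glutathione down outside the cell so that its amino acids can be taken up again. The lining fluid of the lung holds glutathione at a high level, and several genes of the pathway are known targets of the transcription factors Nrf2 and Atf4.

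With smoke, 6 of the 9 genes passed the test as higher (Gclc, Gclm, Gss, Slc7a11, Gsr and Ggt1) and 0 as lower, by limma with an adjusted p under 0.05 over all probes, where 8.23% of all genes were called, 4.96% as higher and 3.27% as lower. Of the 17 probes 10 were higher and 0 lower, against 4.35% higher among all probes. The median log2 difference of the 9 genes was 0.51, against 0.00 for all genes. In 5 of the 9, all smoke lungs exceeded all controls, which held for 4.62% of all genes. A change of more than 2-fold was called in 2 of the 9 (Gclc and Slc7a11) and in 0.676% of all genes. Which genes passed 2-fold depended on the setting. Gclc was under it in some, such as without room air replicate 4 (log2 difference 0.965), and Slc7a11 with the mean of its probes (0.75). Gclm and Ggt1 were over it in others, such as with the scanner's log ratio (1.28 and 1.04). Since whole lung was measured, a changed number of cells of a type and a changed amount of RNA per cell (fewer cells or less RNA for a fall, more for a rise) cannot be told apart in any of these values.

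**Figure D1:**
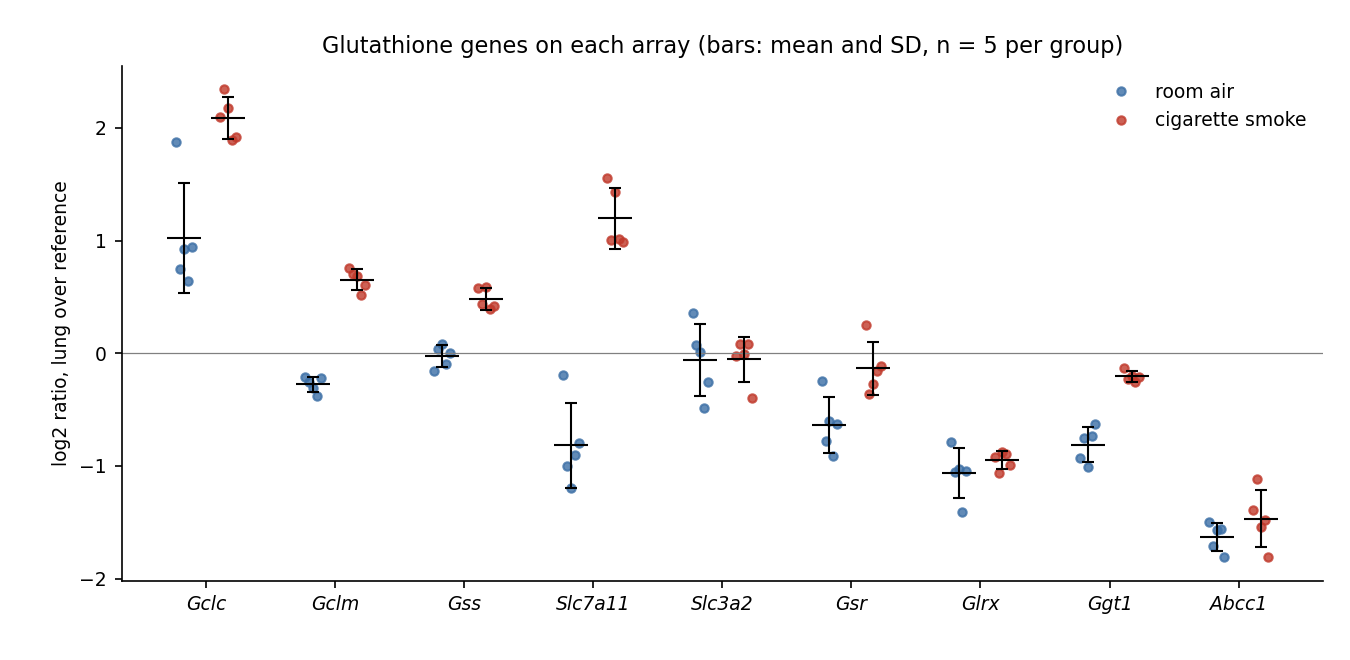
Log2 ratio of lung over reference for the brightest probe of each of the 9 genes, with 1 point per array (blue, room air; red, cigarette smoke; bars, mean and SD, n = 5 per group). The groups do not overlap for Gclc, Gclm, Gss, Slc7a11 and Ggt1, and the room air lung at 1.87 for Gclc is replicate 1.

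The probes of 3 of the genes that rose span more of the genome than their own length, and they are shown because their bases come from separate stretches joined in the transcript. Positions are those of the scanner files, whose header names mouse build mm7. The Gclm probe lies at chr3:122027477-122030112 on the plus strand, the Gss probe at chr2:155304554-155305653 on the minus strand and the Ggt1 probe at chr10:75241341-75241576 on the plus strand, each with 60 bases.
Gclm probe: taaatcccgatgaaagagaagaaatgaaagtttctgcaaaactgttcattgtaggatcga
Gss probe: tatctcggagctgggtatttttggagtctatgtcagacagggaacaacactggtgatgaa
Ggt1 probe: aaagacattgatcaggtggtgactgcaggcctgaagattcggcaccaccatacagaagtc

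Gclc encodes the catalytic subunit of glutamate cysteine ligase, the enzyme that joins glutamate and cysteine. Its log2 ratios were 1.87, 0.75, 0.92, 0.64 and 0.94 in room air replicates 1 to 5 and 2.10, 2.34, 2.18, 1.89 and 1.92 in smoke replicates 1 to 5. The groups did not overlap, but room air replicate 1 lay close under the lowest smoke lung and far above the other controls. The difference was 1.06 ± 0.20 (SE, n = 5 and 5), or 2.09-fold, with an adjusted p of 0.00798 by limma. Without room air replicate 1 it was 1.27, with an adjusted p of 1.7e-05. Within the slides the difference was 0.23, 1.60, 1.26, 1.25 and 0.98, smallest on the slide of that lung.

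Gclm encodes the modifier subunit, which lowers the amount of glutamate the catalytic subunit needs and weakens its inhibition by glutathione. Room air lungs had log2 ratios of -0.21, -0.26, -0.31, -0.38 and -0.22, and smoke lungs 0.76, 0.70, 0.68, 0.52 and 0.61. All controls were below 0 and all smoke lungs above it, with a narrow spread in each group. Gclm rose by 0.93 ± 0.06 (SE), or 1.91-fold, with an adjusted p of 2.98e-06, and by 0.97, 0.96, 0.99, 0.90 and 0.83 within slides 1 to 5.

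Gss encodes glutathione synthetase, which adds glycine to the dipeptide made by the ligase. Its values were -0.16, 0.04, 0.08, -0.09 and 0.00 with room air and 0.58, 0.43, 0.59, 0.39 and 0.42 with smoke. The groups did not overlap, and every smoke lung exceeded the highest control. The difference of 0.51 ± 0.06 (SE) corresponded to 1.42-fold, with an adjusted p of 0.000562, and lay between 0.39 and 0.74 on the 5 slides. It was no longer past the threshold with arrays centred on their median in place of loess (0.41, adjusted p 0.124, with adjusted p between 0.000382 and 1 over all alternatives).

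Slc7a11 encodes xCT, the transport subunit of the exchanger that brings cystine into the cell in return for glutamate. On its brightest probe the log2 ratio was -0.19, -1.0, -1.19, -0.90 and -0.80 with room air and 1.55, 1.00, 1.43, 1.02 and 0.98 with smoke. The groups were far apart, and room air replicate 1 was again the highest control. The difference of 2.02 ± 0.18 (SE), or 4.05-fold, was the largest among the brightest probes of the 9 genes, with an adjusted p of 6.51e-05, and ranged from 1.74 to 2.63 within slides. The red signal stood well over background in 2 of 5 controls and 5 of 5 smoke lungs, so the control level was measured in only some arrays. The size of the difference depended on the background correction, being 2.07 without background correction, 2.95 with a normexp offset of 16 and 5.36 with the log ratio of the scanner software. In the lung channel alone it was 5.22 when scaled to the 75th percentile and 2.07 with normexp and quantile normalization.

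Further probes of Slc7a11 gave smaller differences. A probe of the same accession rose by 0.55 (adjusted p 0.00543), and another by 0.44 (adjusted p 0.00255), and on each of them 1 of 5 controls and 5 of 5 smoke lungs stood well over background. The remaining probe, made for another transcript under the same gene name, stood well over background on 0 arrays in either channel, and its difference of -0.01 had an adjusted p of 0.963. In the lung channel alone, scaled to the 75th percentile, these 2 probes gave 3.44 and 3.40 (adjusted p 0.00527 and 0.00465). The mean of all probes of Slc7a11, that near background among them, gave 0.75.

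Slc3a2 encodes the heavy chain that carries xCT and other transporters to the cell surface. Its brightest probe read 0.36, 0.07, 0.01, -0.48 and -0.25 with room air and -0.03, 0.08, -0.01, 0.08 and -0.40 with smoke. The groups overlapped over nearly their whole range. The difference was 0.01 ± 0.15 (SE), with an adjusted p of 0.991 and a 95% interval from -0.32 to 0.33, and the other probe gave 0.03 (adjusted p 0.895). The response of Slc7a11 exceeded that of its partner by 2.01, with an exact two-sided permutation p of 0.00794, the smallest that these groups allow, and 0.0397 after adjustment over 5 pairs of genes. The permutation exchanged lungs across slides, and exchange within the 5 slides alone could not give a p below 0.0625. This gap had the same sign on 5 of 5 slides, at 2.13, 1.99, 2.64, 1.35 and 1.93, and was 0.73 with the mean of the probes of each gene and 5.34 with the scanner's log ratio.

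**Figure D2:**
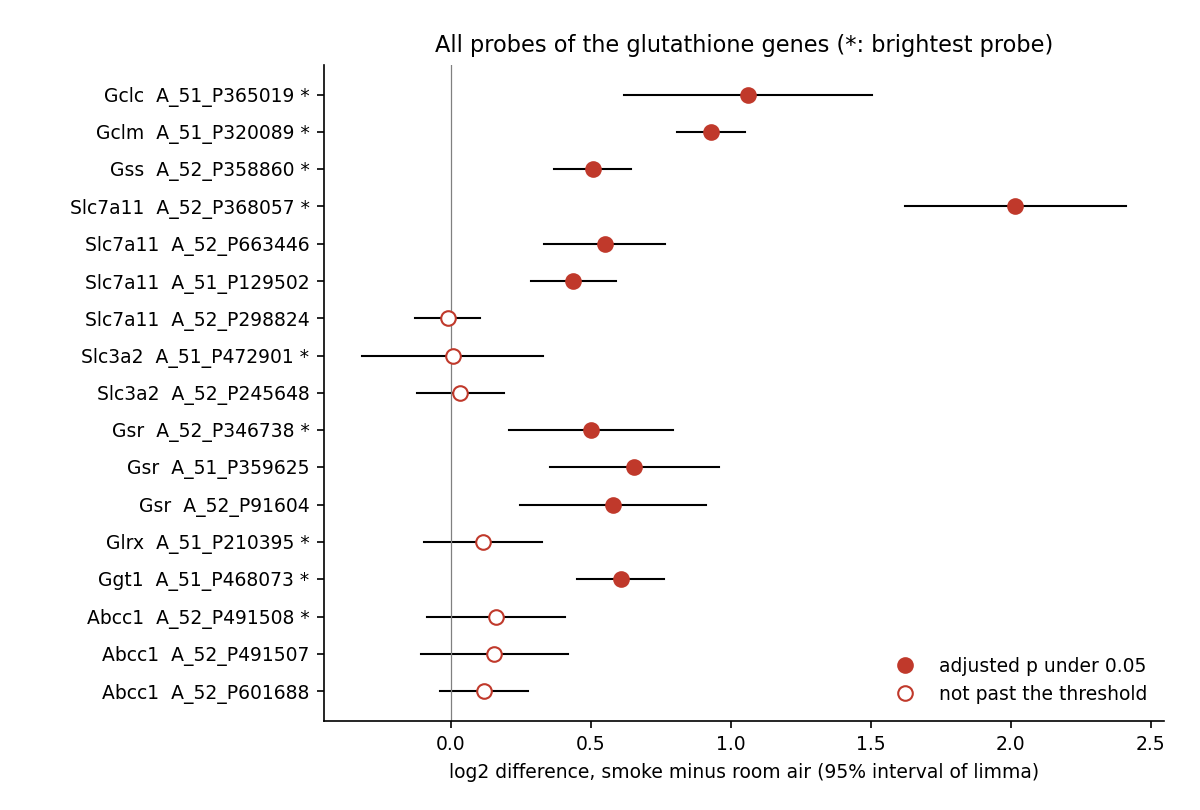
Log2 difference between smoke and room air for all 17 probes, with the 95% interval of limma (filled, adjusted p under 0.05; an asterisk marks the brightest probe of a gene). The probes of Slc7a11 spread from -0.01 to 2.02, whereas the 3 probes of Gsr lie between 0.50 and 0.66.

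Gsr encodes glutathione reductase. Its brightest probe had log2 ratios of -0.25, -0.78, -0.60, -0.91 and -0.63 with room air and 0.25, -0.37, -0.27, -0.16 and -0.12 with smoke. The groups overlapped, because room air replicate 1 lay above the lowest smoke lungs. The 3 probes rose by 0.50, 0.66 and 0.58, with adjusted p of 0.0462, 0.0138 and 0.0410, and the last 2 of them share 39 bases. Without room air replicate 1 the brightest probe gave 0.60 (adjusted p 0.00778). Its call was near the threshold. It was lost when any of room air replicates 2 to 5 or smoke replicates 1, 3, 4 and 5 was left out, with differences of 0.41 to 0.54 and adjusted p of 0.0645 to 0.107, and under 8 further settings (adjusted p 0.00215 to 1 over all alternatives). Within the slides Gsr was higher with smoke on 5 of 5, by 0.50, 0.42, 0.33, 0.75 and 0.51.

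Glrx encodes glutaredoxin, which removes glutathione bound to proteins. It read -0.79, -1.05, -1.03, -1.41 and -1.05 with room air and -0.92, -1.06, -0.88, -0.89 and -0.99 with smoke. The smoke values fell inside the range of the controls. The difference of 0.12 ± 0.10 (SE) did not pass the test (adjusted p 0.644, 95% interval -0.09 to 0.32), and 3 of 5 slides had the smoke lung higher.

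Ggt1 encodes gamma-glutamyl transferase, which acts on glutathione outside the cell. Controls had log2 ratios of -0.93, -0.75, -1.01, -0.74 and -0.63, and smoke lungs -0.13, -0.23, -0.20, -0.26 and -0.21. The smoke lungs lay within a narrow band that no control reached. Ggt1 rose by 0.61 ± 0.07 (SE), or 1.52-fold, with an adjusted p of 0.000376, and by 0.80, 0.52, 0.81, 0.48 and 0.42 within slides. The lung channel alone gave 1.15 when scaled to the 75th percentile and 0.67 with normexp and quantile normalization, and the scanner's log ratio gave 1.04.

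Abcc1 encodes Mrp1, which exports glutathione and its conjugates from the cell. Its brightest probe read -1.50, -1.71, -1.57, -1.56 and -1.81 with room air and -1.39, -1.11, -1.54, -1.48 and -1.81 with smoke. The groups overlapped, and smoke replicate 2 was the highest of all. The 3 probes gave differences of 0.16, 0.16 and 0.12, with adjusted p of 0.542, 0.603 and 0.463, and the first 2 of them share 19 bases. The 95% interval of the brightest probe reached from -0.08 to 0.41.

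**Figure D3:**
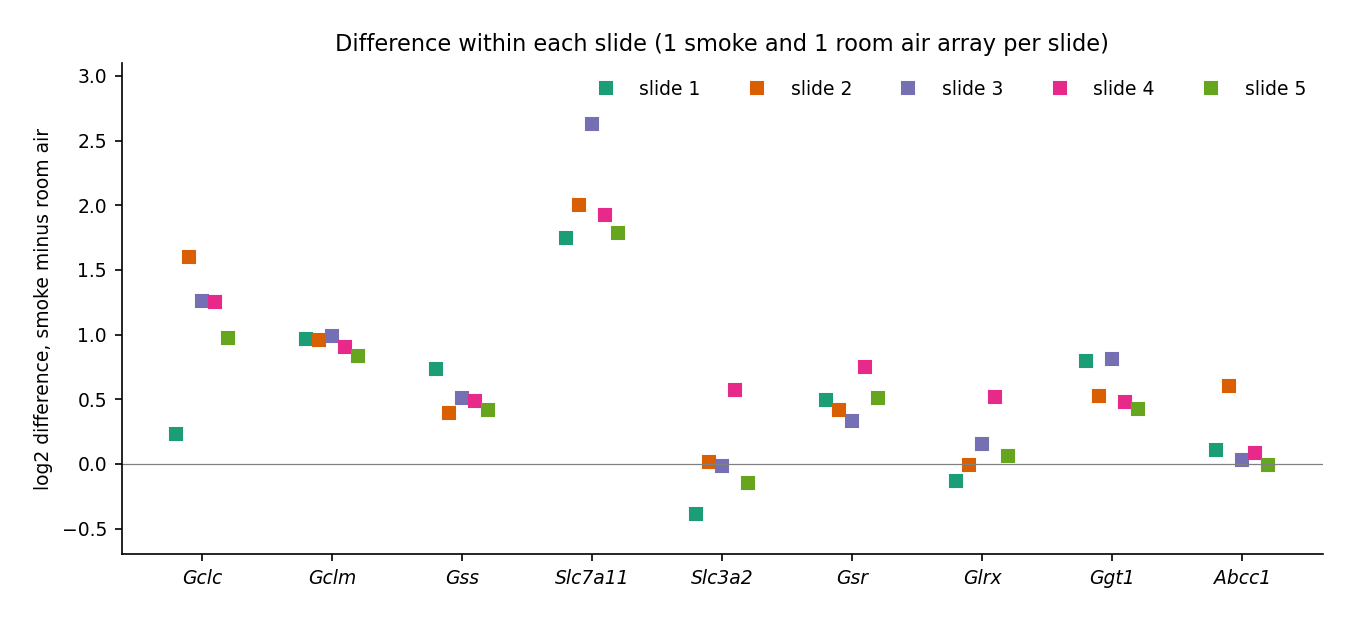
Log2 difference between the smoke and the room air lung of each slide, for the brightest probe of each gene (1 square per slide). Gclm lies between 0.83 and 0.99 on all slides, whereas Gclc ranges from 0.23 on slide 1 to 1.60 on slide 2.

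In the reference channel alone, the 17 probes differed between smoke and room air arrays by -0.15 to 0.50, with an adjusted p of 1 for each. In the lung channel alone, scaled to the 75th percentile, Gclc, Gclm, Gss, Slc7a11 and Ggt1 rose by 1.10, 1.19, 0.56, 5.22 and 1.15, with adjusted p of 0.0209, 0.000515, 0.00783, 0.00455 and 0.000755 by limma. Of the 3 probes of Gsr 1 was called there (0.73, adjusted p 0.0318), and the brightest and the remaining probe were not (0.54 and 0.81, adjusted p 0.150 and 0.160).

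The responses of Gclc and other members were compared within the same arrays by exact two-sided permutation tests. Gclc rose by 0.13 more than Gclm, which did not differ from 0 (exact permutation p = 0.579, adjusted p 0.579). It exceeded Gss by 0.55 (exact permutation p = 0.0476, adjusted p 0.0794), Gsr by 0.56 (p = 0.0317, adjusted p 0.0794) and Ggt1 by 0.45 (p = 0.135, adjusted p 0.169). Each of these differences was positive on 4 of 5 slides, the exception being slide 1 with -0.74, -0.51, -0.27 and -0.57. Without room air replicate 1 the differences were 0.33, 0.80, 0.68 and 0.70, with adjusted permutation p of 0.00992, 0.00992, 0.0159 and 0.00992. None of the 4 passed with all arrays, and all 4 did when this lung, the highest control for Gclc, was left out. With the scanner's log ratio the difference between Gclc and Gclm was -0.20 and that between Gclc and Ggt1 0.046 (adjusted permutation p 0.506 and 0.897).

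The table of RefSeq promoters used here, for build GRCm38.p6, held windows of 6 of the 9 genes and none of Gclc, Gsr and Abcc1. The 250 bases before each start were searched on both strands for TGACNNNGC, the core of the antioxidant response element bound by Nrf2, and for TGATGNAA, an element bound by Atf4 with C/EBP partners. Of 32817 windows, 10.2% held the former and 3.45% the latter. The windows of Gclm (chr3:122245307-122245556, plus strand) and Slc7a11 (chr3:50443614-50443863, minus strand) are shown because both genes rose and each held a match, given in capitals.
Gclm promoter: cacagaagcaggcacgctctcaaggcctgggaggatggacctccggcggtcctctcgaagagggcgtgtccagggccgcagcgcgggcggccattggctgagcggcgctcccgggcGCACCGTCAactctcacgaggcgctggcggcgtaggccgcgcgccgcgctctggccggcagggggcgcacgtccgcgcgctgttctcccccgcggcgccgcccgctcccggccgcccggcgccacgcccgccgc
Slc7a11 promoter: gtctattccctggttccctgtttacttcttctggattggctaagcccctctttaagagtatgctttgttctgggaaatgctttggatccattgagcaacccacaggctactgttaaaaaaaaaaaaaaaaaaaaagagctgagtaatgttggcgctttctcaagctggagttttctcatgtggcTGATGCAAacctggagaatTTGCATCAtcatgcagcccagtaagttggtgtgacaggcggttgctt

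In Gclm the antioxidant core was on the reverse strand, from base 117 to 125 of the window. In Slc7a11 the Atf4 element occurred on the forward strand from base 185 to 192 and on the reverse strand from base 204 to 211. Of the 4 windows of Ggt1, 1 held the antioxidant core on the reverse strand and 1 on the forward strand. The windows of Gss, Slc3a2 and Glrx held neither. A match describes letters only, and binding was not measured.

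For the genes that rose by more than 1.5-fold, the 3 most similar profiles over the 10 arrays were sought among 13865 genes, by the root mean square difference between profiles centred on their means. Closest to Gclc were Jaml (0.134), Cd44 (0.149) and Snx20 (0.151), and in all 3 room air replicate 1 was the highest control, as it was for Gclc. Without that lung they rose by 1.26, 1.03 and 1.07 (adjusted p 1.3e-05, 9.12e-05 and 3.31e-06). Both the rise and its gain without that lung are fixed by the choice by profile over these arrays. Closest to Gclm were Trpv2 (0.072), Hrh1 (0.074) and Nckap1l (0.080), and closest to Slc7a11 were Akr1b8 (0.195), Rgs1 (0.224) and Adam8 (0.232). Closest to Ggt1 were Depdc1b (0.055), Blvrb (0.074) and Qpctl (0.079). The log2 differences of these 12 genes with smoke lay between 0.52 for Qpctl and 1.94 for Rgs1, a direction that the choice by profile fixes. Adam8 differed by 1.82 and Akr1b8 by 1.89, and without room air replicate 1 by 2.03 and 2.10. The call of Cd44 was lost without any of room air replicates 2 to 5 or smoke replicates 1, 2, 3 and 5 (0.75 to 0.83, adjusted p 0.0590 to 0.0672), and that of Snx20 without any array but room air replicate 1 (0.76 to 0.87, adjusted p 0.0514 to 0.0746).

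Other genes of the pathway were counted in 7 lists, against the same 4.96% higher and 3.27% lower over all genes. Among enzymes of glutathione breakdown and reclaiming, 2 of 12 were higher and 0 lower. Dpep2, a membrane dipeptidase, rose by 0.70 (adjusted p 0.00738) and Lap3, a leucine aminopeptidase, by 0.51 (adjusted p 0.00313), while the median of the list was 0.07. The count was 4 with the slide as a block and 4 without smoke replicate 4.

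In cysteine and glutamate supply, 0 of 12 genes were higher and 1 lower, and the median was -0.05. Mat2a, which makes S-adenosylmethionine from methionine, fell by 0.54 (adjusted p 0.000263). With the slide as a block 2 were higher (Slc1a5 and Glul) and 2 lower (Mat2a and Cth). When room air replicate 1 was left out 2 were higher (Slc1a5 by 0.47 and Glul by 0.52) and 2 lower (Mat2a and Slc1a4). Slc1a4 differed by -0.30 without that lung and by -0.18 with all arrays. When room air replicate 3 was left out, 2 were lower. Cth and Cbs, the enzymes that make cysteine from homocysteine, had differences of -0.25 and 0.10, with adjusted p of 0.0565 and 0.711 (0.0131 and 0.516 with the block).

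Of the genes that supply NADPH, on which glutathione reductase draws, 4 of 10 were higher and 0 lower, with a median of 0.17. Pgd and G6pdx, the dehydrogenases of the pentose phosphate pathway, rose by 0.67 and 0.49 (adjusted p 0.000202 and 0.000583). Idh1, the cytosolic isocitrate dehydrogenase, rose by 0.42 (adjusted p 0.0245) and Taldo1, transaldolase, by 0.27 (adjusted p 0.0280). Without room air replicate 2, or smoke replicate 1, 3 or 5, the list had 2 calls, and Idh1 was not called (0.39 to 0.41, adjusted p 0.0613 to 0.0688). Taldo1 lost its call without these arrays, room air replicates 3 and 4 or smoke replicate 2 (0.23 to 0.27, adjusted p 0.0558 to 0.0765).

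Of glutaredoxin and thioredoxin relatives, 4 of 10 were higher and 0 lower, with a median of 0.13. Txnrd1, the cytosolic thioredoxin reductase, rose by 1.22 (adjusted p 0.000801), or 2.33-fold, and Srxn1, sulfiredoxin, by 0.90 (adjusted p 0.000136). Txnrd2, the mitochondrial reductase, rose by 0.41 (adjusted p 0.0396) and Txn1, thioredoxin, by 0.35 (adjusted p 0.0248). Without room air replicate 1 Txnrd1 gave 1.39 (adjusted p 6.81e-07). Of the 3 probes of Txnrd2 only 1 was called, and their mean gave 0.17 (adjusted p 0.140). Its call was lost without any array but room air replicate 4 and smoke replicate 2 (0.34 to 0.43, adjusted p 0.0614 to 0.0950), and that of Txn1 without room air replicate 2 or smoke replicate 2, 3 or 5 (0.31 to 0.35, adjusted p 0.0589 to 0.0668). The list had 2 calls without room air replicate 2, smoke replicate 3 or smoke replicate 5.

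In glutathione transport, 2 of 11 genes were higher and 1 lower, with a median of 0.01. Cftr, a chloride channel that also passes glutathione, rose by 0.40 (adjusted p 0.0279), Abcc5, an exporter, rose by 0.36 (adjusted p 0.0338), and Abcg2, another exporter, fell by 0.27 (adjusted p 0.0119). The call of Abcg2 was lost with a normexp offset of 16 (adjusted p 0.0527), median centring (0.129) and the lung channel alone (0.247 and 0.190), among the adjusted p of 0.00890 to 1 over all alternatives. The count was 1 without room air replicate 2 or 5, or without smoke replicate 1 or 3. Cftr was not called without these or smoke replicate 4 (0.33 to 0.40, adjusted p 0.0567 to 0.0670), and Abcc5 without any array but room air replicate 1 and smoke replicate 4 (0.31 to 0.38, adjusted p 0.0504 to 0.0831).

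Among glutathione peroxidases and S-transferases, the enzymes that consume glutathione, 10 of 32 were higher and 1 lower, with a median of 0.06. Gsta1 and Gsta2 rose by 0.98 and 0.84 (adjusted p 0.000287 and 0.00127), but their transcripts are close to each other in sequence and the probes may not tell them apart. Gsta4 rose by 0.58 (adjusted p 0.000397) and Mgst2 by 0.57 (adjusted p 8.01e-05). Without room air replicate 1, 11 of the list were higher and 3 lower, and its median was -0.007. When any of room air replicates 2 to 4 or smoke replicates 1 and 3 to 5 was left out, 0 were lower.

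Of the regulators linked to Nrf2 and Atf4, 3 of 12 were higher and 0 lower, with a median of 0.10. Maff, a small Maf partner of Nrf2, rose by 1.00 (adjusted p 0.0231), Atf3, a stress-induced factor, by 0.51 (adjusted p 0.0352), and Nfe2l2, which encodes Nrf2, by 0.27 (adjusted p 0.0211). With the slide as a block, 3 were higher and 2 lower (Mafk and Atf4). When room air replicate 2 or 3 or smoke replicate 5 was left out 0 were, and when room air replicate 5, smoke replicate 1 or smoke replicate 3 was, 1 was. Maff was lost without room air replicates 2 to 5 or smoke replicates 1, 3 and 5 (0.90 to 1.0, adjusted p 0.0509 to 0.0628), Atf3 without room air replicates 2, 3 and 5 or smoke replicates 3 to 5 (0.42 to 0.50, adjusted p 0.0616 to 0.0896), and Nfe2l2 without room air replicates 2 and 3 or smoke replicates 1, 2 and 5 (0.26, adjusted p 0.0507 to 0.0576), each array taken singly. Without room air replicate 1 Maff gave 1.26 (adjusted p 6.13e-07) and Nfe2l2 0.33 (adjusted p 0.00115). Of the 4 probes of Nfe2l2 only 1 was called, and their mean gave 0.094 (adjusted p 0.642). Atf4 itself had a difference of -0.25 (adjusted p 0.0705, and 0.0330 with the block).

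**Figure D4:**
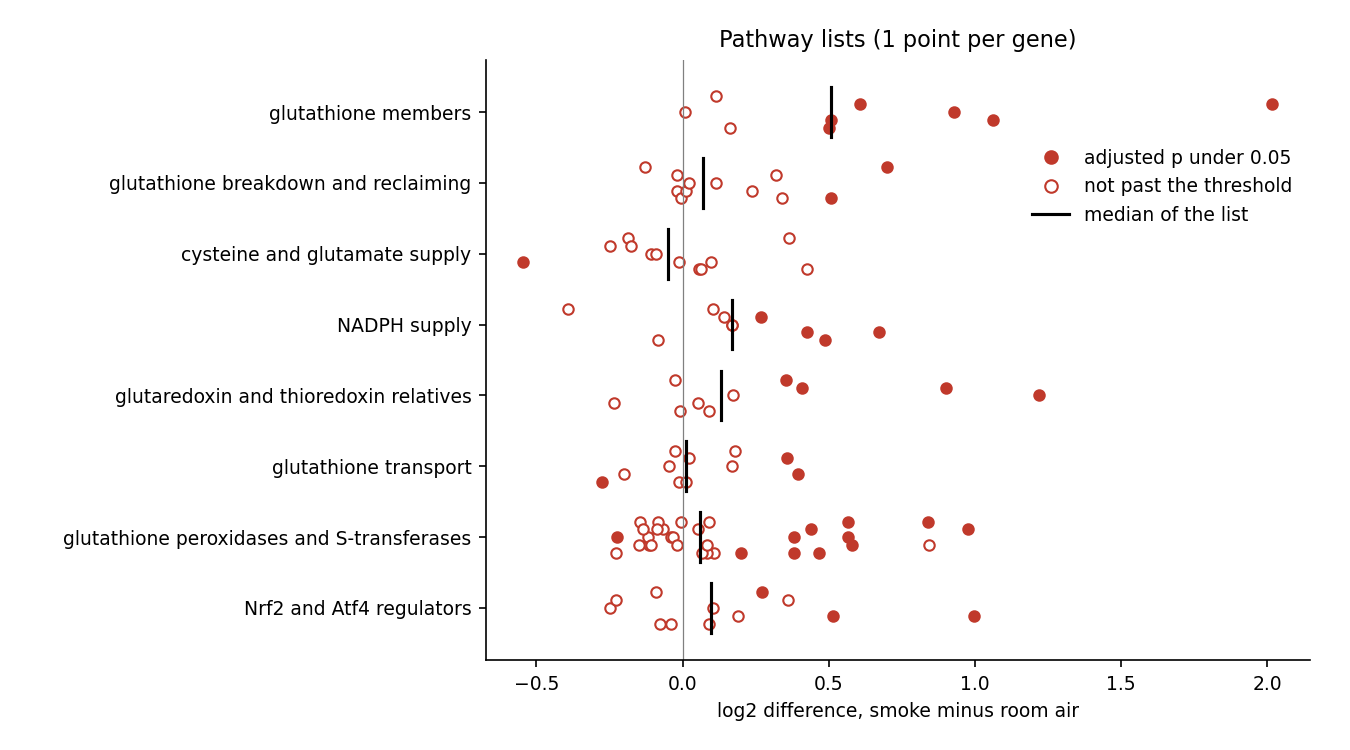
Log2 difference between smoke and room air for each gene of the glutathione members and of the 7 other lists (filled, adjusted p under 0.05; black line, median of the list). The medians of the 7 other lists lie between -0.05 and 0.17, against 0.51 for the 9 members. With single arrays left out the lowest median was -0.076 (cysteine and glutamate supply). The highest of the 7 other lists was then 0.232 (glutaredoxin and thioredoxin relatives), and the members ranged from 0.484 to 0.578.

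Markers of macrophages were higher in the same lungs. The calls of macrophage and neutrophil markers stand against the same 4.96% higher and 3.27% lower over all genes. Of 11 alveolar macrophage markers 6 were higher and 0 lower, with a median difference of 1.14, namely Marco (2.60), Chil3 (2.12), Cd68 (2.06), Itgax (1.34), Plet1 (1.28) and Mrc1 (1.14). The other 5 were not called, at 0.35 for Krt79, 0.25 for Siglecf, 0.13 for Fabp5, -0.09 for Car4 and -0.25 for Fabp4. With single arrays left out 5 of the 11 were higher, except without room air replicate 1 or smoke replicate 4, where 6 were. The mean log2 ratio of the 11 was 3.01, 2.67, 2.84, 2.59 and 2.63 with room air and 3.79, 3.71, 3.96, 3.49 and 3.75 with smoke, and the brightest was Chil3. Of 9 markers of monocytes and other macrophages 7 were higher, with a median of 0.78. The other 2 were not called, at 0.42 for Ccr2 and 0.18 for Lyz2. Without room air replicate 1 Ccr2 was called, at 0.67. The mean of the 9 was 2.24, 2.11, 2.19, 1.92 and 2.09 with room air and 2.92, 3.05, 3.01, 2.79 and 2.86 with smoke, and the brightest was Lyz2. For the means of both lists the groups did not overlap. Marker by marker, all smoke lungs exceeded all controls in 5 of the 11 and 7 of the 9. In both lists 0 markers were below background on all arrays.

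The mean log2 ratio of the 9 glutathione genes in the same lungs was -0.20, -0.52, -0.52, -0.65 and -0.49 with room air and 0.31, 0.20, 0.22, 0.12 and 0.04 with smoke. Room air replicate 1 was the highest control for this mean, for both macrophage lists and for the neutrophil markers. Of 10 neutrophil markers 2 were higher (Camp by 0.60 and Mmp8 by 1.16, and without that lung by 0.72 and 1.41), and S100a9 was the brightest. Of the other 8, not called, Ltf was at 0.90, S100a8 at 0.47, Csf3r at 0.22, S100a9 at 0.16 and Cxcr2 at 0.09. Ngp, Mmp9 and Retnlg had negative differences of -0.06, -0.09 and -0.43. Without room air replicate 1, 4 were higher, with S100a8 at 0.97 (0.47 with all arrays) and Ltf at 1.22 among them, while Retnlg was at -0.12. The median went from 0.19 to 0.51 without that lung and to 0.041 without room air replicate 4. Without room air replicate 2, 3 or 5 or smoke replicate 1 only 1 was higher, and with the slide as a block 3 were. The part of macrophages or neutrophils in the values of the glutathione genes was not tested.

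Markers of other cell types were counted against the same 4.96% higher and 3.27% lower over all genes. Of alveolar type 2, club and ciliated cells, 0 of 8, 0 of 6 and 0 of 7 markers were called. Their medians were 0.08, 0.14 and 0.16. With single arrays left out they ranged from 0.035 to 0.177, 0.053 to 0.263 and 0.068 to 0.233. With the slide as a block 1 marker was higher in each of these lists, and without smoke replicate 4 1 club and 1 ciliated cell marker were. Of alveolar type 1 cells, endothelium, fibroblasts and cardiac muscle, 1 of 7, 1 of 7, 3 of 6 and 1 of 5 were lower and 0 higher. Their medians were -0.16, -0.12, -0.18 and -0.39, and with the slide as a block 2, 2, 3 and 2 were lower. With single arrays left out, the median of the cardiac markers ranged from -0.51 (without room air replicate 5, 2 lower) to -0.09 (without room air replicate 1), and 0 were called without any of the other 9 arrays. The endothelial call was lost without room air replicate 2, 3 or 5 or smoke replicate 1, 2, 4 or 5, its median was -0.03 and that of type 1 cells -0.04 without smoke replicate 4, and the fibroblast median was -0.27 without room air replicate 1 and -0.11 without room air replicate 3. Of T cells and B cells, 0 of 6 and 1 of 6 were higher, with medians of 0.07 and 0.12, and 0 of 4 Y chromosome genes were called. With the slide as a block 2 T cell markers were higher (Cd3d and Cd3g). The part of these other cell types in the results was likewise not tested.

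**Figure D5:**
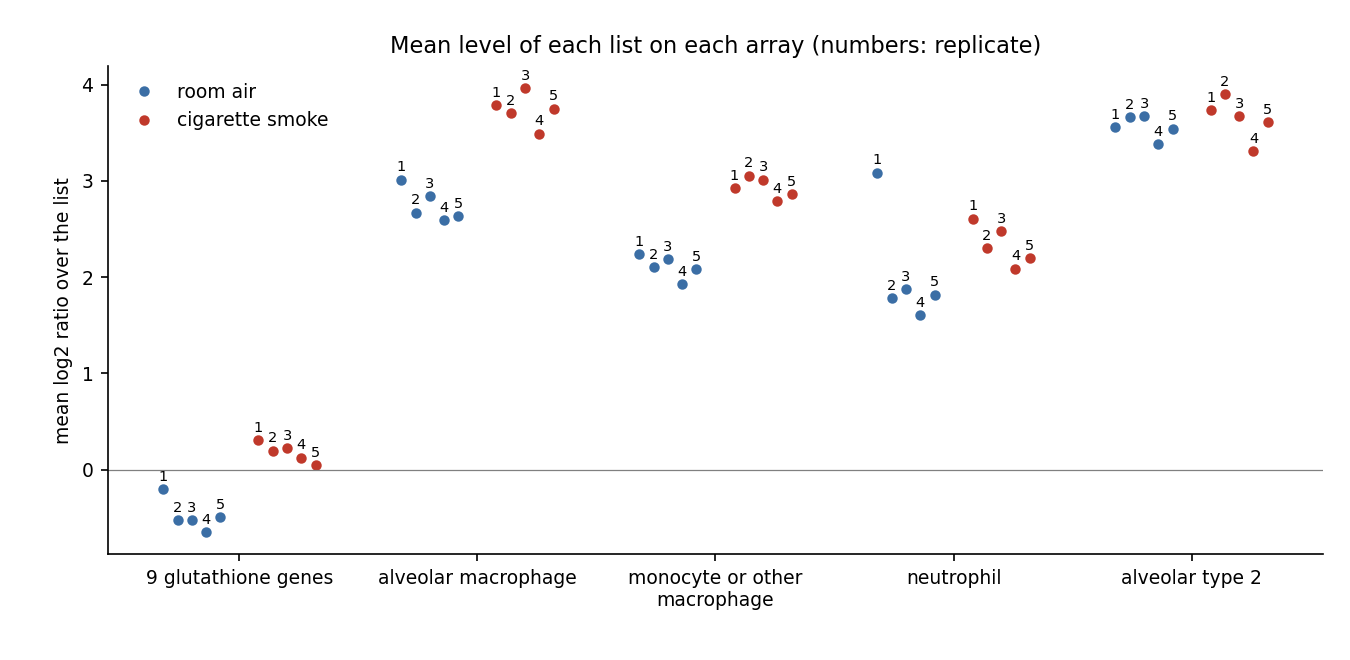
Mean log2 ratio of lung over reference for the 9 glutathione genes and for markers of 4 cell types on each array (numbers give the replicate). Both macrophage lists separate the groups, whereas room air replicate 1 has the highest neutrophil mean of all 10 arrays at 3.09.

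Over all probes, limma called 2906 of 41173 (7.06%), and 5019 with the slide as a block. The methods name Wilcoxon tests without stating an exact form. The exact Wilcoxon test run here called 0 after adjustment, since its smallest p of 0.00794 became 0.115. It gave 5446 probes at an unadjusted p under 0.05 against 7479 by limma. None of the 6 members passed the adjusted Wilcoxon test.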

How the data were processed

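For each array the authors deposited what the scanner software wrote, with the mean and median intensity of every spot and of its local background in red and green, and a log10 ratio made by the scanner software. Per the file headers this was Agilent Feature Extraction 9.5.3.1, and per the labels version 9.1. The deposited value table holds log2 values that equal the mean over both channels of the median intensity after background subtraction, without scaling or centring, with column medians of 8.03, 7.86, 7.34, 8.03 and 7.84 for the columns named room air 1 to 5 and 7.96, 8.06, 7.81, 7.66 and 7.88 for smoke 1 to 5. Against the scanner files its groups are exchanged, and it served as an alternative only.

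Mean intensities were corrected with normexp (offset 50) of limma 3.58.1 in R 4.3.3 and normalized by loess within arrays. Control spots and outlier spots were left out, the spots of a probe were averaged, and no filter on dim probes was applied. Of 41174 probes, 22951 were named by accession, 6659 by current symbol, 3109 by synonym and 8455 as in the files. Where a gene had several probes, that with the highest mean lung signal stood for it. Groups were compared with lmFit and eBayes, two-sided, and p was adjusted by the method of Benjamini and Hochberg over the whole array, with 0.05 as the limit. Fold changes are antilogs of log2 differences, which the normexp offset shrinks for dim probes.

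Arrays of the same replicate number shared a slide and deviated together from their group means (correlations of 0.157, 0.46, 0.461, 0.55 and 0.415 across probes, while arrays of different numbers had -0.124 as median and reached 0.205, above replicate 1), and the numbers and slides pair the samples, so the slide was a block in an alternative. The 10 arrays were scanned on 4 days. The other alternatives changed the test, the filter on dim probes, how background was corrected and arrays were normalized, the channel or table used and the treatment of several probes, and left out each array in turn, and 1, without slide 1, was chosen after seeing the data.

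All 9 members with every probe are named, with up to 4 called genes of each pathway list by size of difference and the 3 closest profiles of each member with a fold change over 1.5. Cth, Cbs, Slc1a4, Slc1a5, Glul, Mafk, Atf4 and the markers named were chosen after their values were seen. The members and lists were chosen with earlier results of these data known. Numbers of columns of samples not used: 0.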

Additional observations from a re-analysis of the deposited data

Results flagged for a closer look

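In 10 of 84 groups of 5 lungs, the highest or lowest lung lay farther from its nearest neighbour than 0.71 of the range of the group. For a single group of normally distributed values, chance gives this in about 1 in 20. The groups are of genes measured on the same arrays and are not independent, so the counts cannot be weighed against that rate. Of the 84 groups, 60 are of members and pathway genes, with 6 such lungs, of which 4 were room air replicate 1, on the high side. The others are of genes chosen for profiles like those of the members, so their high value in room air replicate 1 is fixed by that choice. Its log2 ratio was 1.87 for Gclc, with the nearest control at 0.94. It was -0.04 for Txnrd1 (nearest -0.79), 0.01 for Maff (nearest -1.23) and 0.93 for Nfe2l2 (nearest 0.69). Among the genes chosen by profile it was 2.99 for Jaml (nearest 2.12), 0.11 for Cd44 (nearest -0.84), 0.49 for Snx20 (nearest -0.46) and -0.79 for Adam8 (nearest -1.67). Smoke replicate 5 was low for Slc3a2 at -0.40, with the nearest smoke lung at -0.03, and smoke replicate 4 was low for Taldo1 at 0.66, with the nearest at 0.87.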

How the results depend on the processing

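The tests were repeated under 22 planned settings and 1 added one, without slide 1, which was chosen after seeing the data. Values are log2 differences, or numbers of genes or probes called.

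With the slide as a block 5019 probes were called, and the numbers were 4 for breakdown and reclaiming, 4 for cysteine and glutamate supply and 5 for the regulators. Of these, Cth (adjusted p 0.0131) and Atf4 (0.0330) are named in the report as not called. The block changed no call of the 9 members, and it was not applied to the differences in response.

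The exact Wilcoxon test called 0 probes, 0 of the 9 glutathione genes and 0 genes in each of the lists for breakdown, supply, NADPH, glutaredoxin and thioredoxin relatives, transport, peroxidases and transferases, and regulators. The differences are those of the report (Gclc 1.06, Gclm 0.93, Gss 0.51, Slc7a11 2.02, Gsr 0.50, Ggt1 0.61), with adjusted exact p of 0.115, and 0.240 for Gsr.

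Gsr was also no longer called without background correction (0.51, adjusted p 0.0580), with the scanner software's log ratio (0.54, adjusted p 0.0647) and with scale normalization between arrays (0.49, adjusted p 0.0617). In the supply list, the scanner's log ratio gave 2 genes and scale normalization 4. The difference in response of Gclc minus Gclm turned to -0.20 with the scanner's log ratio, and that of Gclc minus Ggt1 was 0.046 (adjusted p 0.897).

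With median centring in place of loess, 1434 probes were called, 687 higher and 747 lower (47.9% higher, against 61.7% of the 2906). Gss (0.41, adjusted p 0.124) and Gsr (0.40, adjusted p 0.359) were not called, and Slc3a2 was -0.040. The numbers were 1 for NADPH supply, 2 for glutaredoxin and thioredoxin relatives, 0 for transport, 4 for peroxidases and transferases and 0 for the regulators. The cause was not tested.

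In the lung channel alone, scaled to the 75th percentile, 1759 probes were called and Gsr was not (0.54, adjusted p 0.150). The numbers were 0 for supply, 2 for NADPH, 2 for glutaredoxin and thioredoxin relatives, 1 for transport, 7 for peroxidases and transferases and 0 for the regulators. In the lung channel with normexp and quantile normalization Gsr was 0.49 (adjusted p 0.0990), and the numbers were 2 for supply, 2 for glutaredoxin and thioredoxin relatives, 1 for transport and 1 for the regulators.

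The deposited value table, whose groups are exchanged against the scanner files, gave 16 probes, 0 higher and 16 lower, and 0 glutathione genes. It gave 0 genes in each list, of breakdown, supply, NADPH, glutaredoxin and thioredoxin relatives, transport, peroxidases and transferases, and regulators. Signs turned for Gclc -0.49, Gclm -0.44, Gss -0.21, Slc7a11 -1.66, Gsr -0.17 and Ggt1 -0.55. They also turned for Dpep2 -0.61, Lap3 -0.19, Mat2a 0.23, Pgd -0.33, G6pdx -0.18, Idh1 -0.076, Taldo1 -0.093, Txnrd1 -0.48, Srxn1 -0.38, Txnrd2 -0.18 and Txn1 -0.14. Likewise Cftr was -0.97, Abcc5 -0.18, Abcg2 0.19, Gsta1 -0.46, Gsta2 -0.38, Gsta4 -0.22, Mgst2 -0.24, Maff -0.42, Atf3 -0.19 and Nfe2l2 -0.060. Among genes with similar profiles, Jaml was -0.82, Cd44 -0.43, Snx20 -0.44, Trpv2 -0.50, Hrh1 -0.90, Nckap1l -0.51, Akr1b8 -0.79, Rgs1 -1.41, Adam8 -0.89, Depdc1b -0.33, Blvrb -0.13 and Qpctl -0.22.

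For the named genes other than the members, 575 of the values under all settings kept their call, 151 lost it and 33 turned in sign. Besides the Wilcoxon test and the value table, the lost calls came with median centring (13 genes), the lung channel (11 genes with 75th percentile scaling and 8 with quantile normalization), the scanner's log ratio (5), an offset of 16 (3), scale normalization (1), the mean of all probes (2), without slide 1 (4) and with single arrays left out.

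With the mean of the probes of a gene the supply list had 2 calls, and without slide 1 it had 4.

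Leaving out 1 array at a time, the difference ranged from 0.97 to 1.27 for Gclc, 0.90 to 0.96 for Gclm, 0.47 to 0.53 for Gss and 1.92 to 2.17 for Slc7a11. It ranged from -0.10 to 0.11 for Slc3a2, 0.41 to 0.60 for Gsr, 0.03 to 0.18 for Glrx, 0.56 to 0.65 for Ggt1 and 0.07 to 0.25 for Abcc1. The sign of Slc3a2 turned without room air replicate 4 (-0.10) or 5 (-0.041), or smoke replicate 2 (-0.027), 3 (-0.004) or 4 (-0.027). Gsr lost its call without room air replicate 2 (0.46), 3 (0.51), 4 (0.43) or 5 (0.50), or smoke replicate 1 (0.41), 3 (0.54), 4 (0.51) or 5 (0.50). Between 5 and 6 of the 9 genes and 2102 to 3660 probes were called.

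The numbers called in the lists ranged from 2 to 4 for breakdown, 1 to 4 for supply, 2 to 6 for NADPH, 2 to 4 for glutaredoxin and thioredoxin relatives, 1 to 3 for transport, 8 to 14 for peroxidases and transferases and 0 to 3 for the regulators. Differences in response ranged from 0.057 to 0.33 for Gclc minus Gclm, 0.47 to 0.80 for Gclc minus Gss, 0.44 to 0.68 for Gclc minus Gsr, 0.34 to 0.70 for Gclc minus Ggt1 and 1.90 to 2.09 for Slc7a11 minus Slc3a2. The upper end of the Gclc comparisons was always that without room air replicate 1, where all 4 were called.

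The values are RNA of whole lung at a single time and from a single strain and sex. Place on the slide and group cannot be told apart, and the direction of every difference rests on the group assignment of the scanner files. Where the lung signal was near background, as for Slc7a11 in controls, the size of a difference depends on the background correction.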
